A study of Mus musculus with 30 samples.

Results

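Ligands and receptors of the fibroblast growth factor (FGF) family were examined in the mouse fracture callus, as 10 genes taken by symbol out of the 43629 genes in the deposited count table. They were the signalling receptors Fgfr1, Fgfr2, Fgfr3 and Fgfr4, the receptor-like gene Fgfrl1, and the ligands Fgf1, Fgf2, Fgf7, Fgf18 and Fgf23. All 10 were found in the table by symbol, and the rule that names them uses no measured value. RNA-seq was performed on callus from male C57BL/6J mice, with no genetic change named, after an open tibial fracture with an intramedullary nail at the age of 20 weeks. DIO mice (diet-induced obesity) ate a high-fat diet and lean mice a low-fat diet, both until harvest. Calli of both diets were collected on d3, d5, d7 and d10 post-fracture, and calli of DIO mice also on d14 and d21. Each of the 10 groups held 3 libraries from separate calli, 30 in all, and lean d14 and d21 were not analysed here. Soft tissue was removed before RNA extraction, but the callus remained a mixture of cell types, so a lower value can come from fewer cells of a type or from less RNA per cell, which cannot be told apart.

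FGFs are secreted signals that bind receptor tyrosine kinases together with heparan sulphate chains on the cell surface, and the activated receptor passes the signal through adaptor proteins to the RAS-ERK and phospholipase C branches. Sprouty, Spred and Dusp proteins, themselves induced by the signal, dampen it. In the skeleton, FGFR3 is known as a brake on chondrocyte proliferation, FGFR1 and FGFR2 act in osteoprogenitors and osteoblasts, FGF18 is made next to growth cartilage, and FGF23 is a hormone of osteocytes that controls phosphate in the kidney with the co-receptor Klotho. FGFRL1 has an FGF-binding extracellular part but lacks the kinase.

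On GRCm38, with the GENCODE M21 annotation, Fgfr1 lies at chr8:25513654-25575718 (+), Fgfr2 at chr7:130162451-133123350 (-), Fgfr3 at chr5:33721674-33737068 (+) and Fgfr4 at chr13:55152640-55168759 (+). Fgfrl1 is on the same chromosome as Fgfr3, at chr5:108692382-108706924 (+). Of the ligand genes, Fgf2 lies at chr3:37348346-37410108 (+), Fgf7 at chr2:126034658-126091185 (+), Fgf18 at chr11:33117430-33147400 (-) and Fgf23 at chr6:127072902-127081408 (+), and Fgf1 is on chromosome 18. Exons of Fgf2 overlap those of Nudt6 on the opposite strand over 640 bases and of Gm43439 on the same strand over 255 bases, Fgfr3 exons overlap G630022F23Rik on the opposite strand over 998 bases, Fgfr2 exons overlap Ctbp2 on the same strand over 314 bases, and Fgfr1 exons overlap Gm16159 on the opposite strand over 164 bases. Whether reads were counted by strand is not given in the sources used here, so counts in these stretches are uncertain. Counts were per gene, and the IIIb and IIIc splice forms of the receptors were not separated.

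Total counts ranged from 13247122 to 26365620 per library, with a median of 16854427. One library stood apart among the lean d10 calli: the chondrocyte markers (Col2a1, Acan, Sox9, Col9a1, Matn1 and Cnmd) summed to 55849 CPM (the usual count scale in which libraries share the same total, here with TMM factors) in replicate 1, and to 10852 and 8826 CPM in the other 2. The lean d10 results of Fgfr1, Fgfr3 and Fgfrl1 are given with and without that library. So are the d10 diet differences of Fgfr3 and Fgfrl1 and their changes from d7. Other members' results that rest on it are not all given without it, and those of the pathway lists include it. Osteoblast markers such as Bglap and Sp7 were present in all groups, summing to between 13527 and 68260.0 CPM, and skeletal muscle markers such as Acta1 and Ckm also remained, at summed levels between 289.7 and 20287 CPM.

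Per kilobase of exon, Fgfr1 had the highest median of the 10 genes over the 30 libraries, at 36.0 CPM per kilobase. Fgfrl1, Fgfr3 and Fgfr2 followed at 18.2, 15.1 and 13.2 CPM per kilobase, and their ranges overlapped. Dividing by the longest transcript in place of all exons turned the order of these 3 genes around, to 30.9 for Fgfr2, 25.4 for Fgfr3 and 21.8 for Fgfrl1, with Fgfr1 still first at 70.5. The ligands Fgf1 and Fgf7 stood lower, at 3.50 and 2.81 CPM per kilobase of exon, and Fgfr4 reached 1.08. Fgf18 and Fgf2 were near the detection limit at 0.563 and 0.0679 CPM per kilobase, and Fgf23 had a median of 0. Fgfr1 was not first in every group. On DIO d7 the means were 73.8 CPM per kilobase of exon for Fgfrl1, 42.0 for Fgfr3 and 30.6 for Fgfr1. The Fgfrl1 mean was also above that of Fgfr1 on DIO d5 (53.5 against 40.7) and slightly on lean d5 (38.1 against 37.6).

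**Figure D1:**
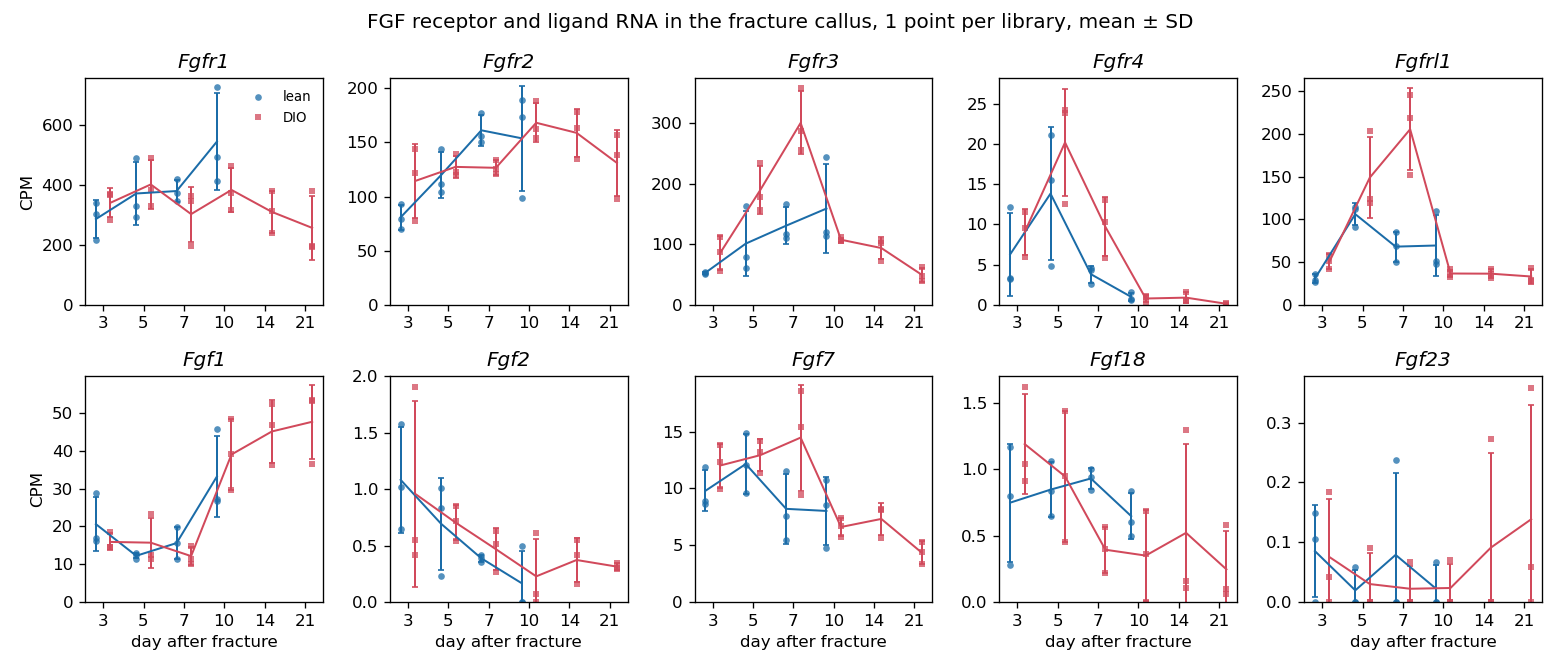
CPM of each of the 10 genes (vertical axes, linear, each panel on its own scale) by day post-fracture (horizontal axis) in lean (blue circles) and DIO (red squares) calli; points are single libraries, and lines with bars are the mean and SD of 3. The means of Fgfr3 and Fgfrl1 are highest on DIO d7, where Fgfr3 reads 256 to 358 CPM. Fgfr4 falls close to 0 after d7 in both diets. In DIO calli Fgf1 is higher from d10 on, while lean d3 and d10 overlap.

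The regions before the RefSeq start of the 3 receptor genes called between d7 and d10 in DIO mice are shown for context, as the 250 bases that end just before the start of a RefSeq transcript (GRCm38.p6, plus strand). The regions are chr5:33721474-33721723 for Fgfr3, chr5:108693979-108694228 for Fgfrl1 and chr13:55152568-55152817 for Fgfr4. Fgfr3 has 2 annotated starts, of which the upstream one is shown. All 3 windows end downstream of the first GENCODE start of their gene. Capitals mark a GC box (GGGCGG), a myogenic E-box (CAGCTG) or a SOX core (ACAAAG) on either strand.
Fgfr3: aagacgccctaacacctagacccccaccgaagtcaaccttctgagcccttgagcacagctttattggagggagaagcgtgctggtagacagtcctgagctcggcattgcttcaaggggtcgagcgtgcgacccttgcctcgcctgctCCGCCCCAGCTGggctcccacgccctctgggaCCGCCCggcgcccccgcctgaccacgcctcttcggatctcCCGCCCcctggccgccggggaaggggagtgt
Fgfrl1: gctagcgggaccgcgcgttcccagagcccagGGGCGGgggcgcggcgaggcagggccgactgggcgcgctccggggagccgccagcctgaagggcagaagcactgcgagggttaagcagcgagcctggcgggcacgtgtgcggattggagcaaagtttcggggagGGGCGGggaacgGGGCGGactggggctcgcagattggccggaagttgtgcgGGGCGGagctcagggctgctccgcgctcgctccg
Fgfr4: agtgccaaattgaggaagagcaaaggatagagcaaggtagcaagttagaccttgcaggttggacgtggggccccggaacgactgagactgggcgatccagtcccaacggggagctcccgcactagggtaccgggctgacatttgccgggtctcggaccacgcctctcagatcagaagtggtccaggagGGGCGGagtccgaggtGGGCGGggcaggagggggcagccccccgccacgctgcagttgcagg
All 3 windows are rich in G and C, at 66.8% for Fgfr3, 73.6% for Fgfrl1 and 64.0% for Fgfr4. They hold 3, 4 and 2 GC boxes in that order, a motif present in 32.7% of the 32851 windows of this length. Fgfr3 alone of these 3 holds CAGCTG, in a single match that directly follows a GC box, against 13% of all windows, and none of the 3 holds ACAAAG, found in 16.5% of windows. A match describes these letters only, and no binding was measured. The upstream sequences of 8 of the 10 genes were in the table used, not those of Fgfr1 and Fgf1.

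Fgfr1 encodes the main receptor of mesenchymal progenitors and was high in every library. In lean calli it measured 303, 216 and 339 CPM on d3 and 294, 331 and 489.5 on d5. It measured 374, 347 and 418 CPM on d7 and 726, 413 and 494 on d10. All 3 lean d10 libraries were above all lean d3 libraries, and the d10 group was led by replicate 1. The rise between d3 and d10 passed the test (log2 fold change 0.95 ± 0.25, adjusted p = 0.0160), where log2 fold changes are given ± SE and p-values come from edgeR's quasi-likelihood test with Benjamini-Hochberg adjustment over all genes tested. Without that d10 library, the one with the high chondrocyte markers, the log2 fold change was 0.69 ± 0.24 (adjusted p = 0.0581). It was 0.72 ± 0.28 (adjusted p = 0.122) without replicate 1 of every day and 0.93 ± 0.30 (adjusted p = 0.0999) without replicate 2 of every day.

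In DIO calli Fgfr1 measured 285, 366 and 371 CPM on d3, 490.3, 331 and 384 on d5 and 364, 197 and 347 on d7. Later it measured 462, 373 and 315 CPM on d10, 313, 238 and 378 on d14 and 197, 380.4 and 192 on d21. The days overlapped, and the test of any change over the 6 days of DIO mice was not passed (adjusted p = 0.344).

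Fgfr2, a receptor of osteoblasts in one splice form and of epithelia in the other, was lowest on lean d3, at 69.7, 79.7 and 93.1 CPM. It measured 112, 104 and 143 CPM on d5, 151, 156 and 177 on d7 and 98.3, 174 and 189 on d10. The later groups lay wholly above d3. The rise over d3 passed the test on d7 (log2 fold change 1.01 ± 0.22, adjusted p = 0.0444) and on d10 (log2 fold change 0.95 ± 0.22, adjusted p = 0.00877). The d7 call was lost with upper-quartile factors (adjusted p = 0.0544) and whenever 1 replicate number was left out of every day, with adjusted p from 0.0835 to 0.512. The d10 call was lost without replicate 2 of every day (adjusted p = 0.148).

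In DIO mice Fgfr2 already measured 77.1, 144 and 122 CPM on d3, 120.2, 139 and 123 on d5 and 125, 134 and 120.5 on d7. On d10 it measured 163, 154 and 188 CPM, on d14 178, 135 and 164 and on d21 139, 157 and 97.4. Replicate 1 of d3 was the lowest of the 18 DIO libraries, the d3 and d21 groups overlapped, and no change over the DIO days passed the test (adjusted p = 0.119).

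Fgfr3, the receptor of growth-plate cartilage, ranged from 39.6 to 358 CPM over the 30 libraries. In lean calli it measured 51.5, 54.3 and 53 CPM on d3 and 61, 79.6 and 163 on d5, followed by 109.6, 116 and 166 on d7 and 244, 119.6 and 114 on d10. The 3 lean d3 libraries agreed closely and lay below every later lean library. Its level on lean d10 was higher than on d3 (log2 fold change 1.61 ± 0.36, adjusted p = 0.00742), a call lost without replicate 2 of every day (adjusted p = 0.0704). Without lean d10 replicate 1 the change was 1.16 ± 0.32 (adjusted p = 0.0237).

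In DIO calli Fgfr3 rose from 56.2, 86.5 and 112 CPM on d3 to 234, 179 and 156 on d5 and 287, 256 and 358 on d7. It then measured 105, 111 and 106 CPM on d10, 103, 72.8 and 106 on d14 and 39.6, 62.6 and 47.0 on d21. The d7 libraries were the 3 highest of all 30, and the d10 libraries all lay below every d5 library. Fgfr3 was higher on d7 than on d3 (log2 fold change 1.84 ± 0.24, adjusted p = 0.000124) and lower on d10 than on d7 (log2 fold change -1.5 ± 0.24, adjusted p = 0.000415). It was also higher on d5 than on d3 (log2 fold change 1.16 ± 0.23, adjusted p = 0.0150), a call lost with all 30 libraries in 1 fit (adjusted p = 0.0638), without replicate 1 of every day (0.309) and without replicate 2 (0.0729). A further fall came between d14 and d21 (log2 fold change -0.90 ± 0.23, adjusted p = 0.0142), which did not pass without replicate 1 of every day (adjusted p = 0.169) or without replicate 3 (0.120). The d21 and d3 groups overlapped, although the model called d21 lower (log2 fold change -0.75 ± 0.23, adjusted p = 0.0151). That call did not pass with all 30 libraries in 1 fit (adjusted p = 0.0513) or without replicate 3 of every day (0.203).

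The cartilage markers moved on the same days. Their summed level in DIO calli was 297 to 974 CPM on d3, 13380.5 to 32913 CPM on d7 and 1416 to 4844 CPM on d10, and all 6 genes of the list rose between d3 and d7 and fell between d7 and d10. Of all genes, 4.67% were called higher from d3 to d7 and 7.01% lower from d7 to d10. Col2a1 and Acan, the defining markers, were detected in every library. The part of these cells in the Fgfr3 change was not tested.

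Fgfr4, a receptor of liver and of regenerating muscle, was low, had its highest group mean on d5 in both diets, and was lowest on the last day of each. In lean calli it measured 12.2, 3.39 and 3.24 CPM on d3, 21.1, 15.5 and 4.88 on d5, 4.56, 2.60 and 4.29 on d7 and 1.57, 0.606 and 0.777 on d10. Replicates differed up to several times within d3 and d5, and all d10 libraries were below all others. The fall from d3 to d10 passed the test (log2 fold change -2.64 ± 0.68, adjusted p = 0.0134), but not without replicate 2 of every day (adjusted p = 0.0975).

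In DIO calli Fgfr4 measured 11.6, 5.96 and 9.59 CPM on d3, 12.6, 24.2 and 23.8 on d5 and 5.77, 10.3 and 13 on d7. It dropped to 1.07, 0.290 and 0.988 CPM on d10, was at 0.437, 1.65 and 0.587 on d14, and stood at 0, 0.116 and 0.255 on d21, from 0, 2 and 5 counts. A count of 0 in that library allows up to 0.173 CPM, the level of 3 counts. The d7 and d10 groups did not overlap, and the fall between them passed the test (log2 fold change -3.63 ± 0.56, adjusted p = 0.000326). The further fall to d21 (log2 fold change -2.70 ± 0.78, adjusted p = 0.0239) rests on a few counts, and it was lost when any replicate number was left out, with adjusted p from 0.0707 to 0.155. Markers of satellite cells and myoblasts (Pax7, Myod1, Myf5 and Myog) summed to 19.4 to 56.1 CPM on DIO d7 and to 3.46 to 5.65 CPM on d10, and 3 of these 4 fell. In lean calli their sum was 20.9 to 79.7 CPM on d3 and 3.57 to 5.86 CPM on d10, again with 3 of 4 lower. The share of all genes called lower was 7.01% for the DIO step and 14.1% for the lean one. Pax7 had no count in 2 libraries and Myf5 none in 6. Mature muscle markers gave 0 calls of 5 in these 2 comparisons at the adjusted threshold. In either direction, 13% of all genes were called in the DIO comparison and 29.3% in the lean one. The part of muscle cells in the Fgfr4 change was not tested.

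Fgfrl1, the receptor without a kinase, rose early in lean calli, from 29.3, 26.8 and 36.3 CPM on d3 to 112, 115 and 90.8 on d5. It measured 68.3, 50.5 and 85.3 CPM on d7 and 109.9, 47.2 and 50.9 on d10. All d5 libraries were above all d3 libraries, and replicate 1 of d10 stood well above the other 2 of its day. Fgfrl1 was higher on d5 than on d3 (log2 fold change 1.79 ± 0.31, adjusted p = 0.0280) and on d10 than on d3 (log2 fold change 1.19 ± 0.30, adjusted p = 0.0128). The d5 call was lost when any replicate number was left out of every day, with adjusted p from 0.0893 to 0.630. Without lean d10 replicate 1 the d10 change was 0.70 ± 0.21 (adjusted p = 0.0346). It was 0.65 ± 0.27 (adjusted p = 0.142) without replicate 1 of every day and 1.3 ± 0.35 (adjusted p = 0.0622) without replicate 2.

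In DIO calli Fgfrl1 measured 41.7, 51.1 and 58.7 CPM on d3, 124, 203 and 119 on d5 and 152, 218 and 246 on d7. After d7 it stood at 32.6, 41.5 and 35.7 CPM on d10, 35.9, 42.3 and 31.1 on d14 and 28.4, 43.0 and 27.9 on d21. The d5 and d7 libraries were all above every DIO library of the other days. The rise from d3 passed on d5 (log2 fold change 1.56 ± 0.24, adjusted p = 0.00229) and on d7 (log2 fold change 2.04 ± 0.24, adjusted p = 5.07e-05), the former missing the threshold without replicate 1 of every day (adjusted p = 0.0522). Every d10 library lay below every d7 library (log2 fold change -2.50 ± 0.25, adjusted p = 4.80e-06), while chondrocyte markers fell as described for Fgfr3. Over that step 7.01% of all genes were called lower. Some markers of satellite cells and myoblasts, of fibroblasts and progenitors, and of pericytes and smooth muscle were among them. The part of these cell types in the Fgfrl1 change was not tested.

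Relative to one another, the 4 signalling receptors changed their shares. Of their summed level per kilobase of exon, Fgfr1 held 62.5 ± 4.68% (mean ± SD, n = 3) on lean d3 and Fgfr3 16.4 ± 3.05%. On lean d7 the Fgfr3 share was 24.7 ± 2.74%, and on DIO d7 it was 48 ± 3.27%, above the Fgfr1 share of 34.5 ± 6.40% in the same calli. By DIO d10 Fgfr1 was again first at 54.9 ± 5.72%, with Fgfr3 at 21.5 ± 2.18%. Fgfr4 held 6.93 ± 2.86% on DIO d5 and 0.0850 ± 0.105% on DIO d21. These shares describe RNA and depend on the exon lengths used.

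**Figure D2:**
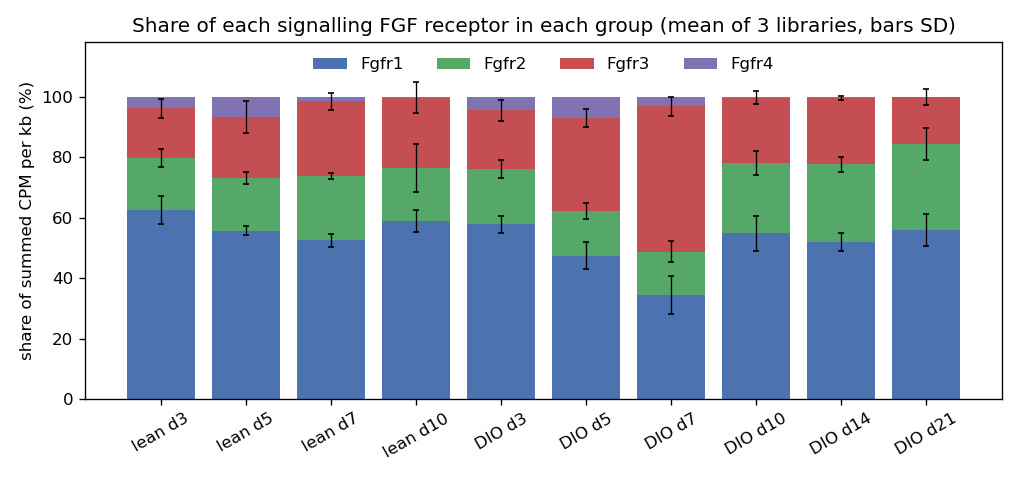
Share of each signalling receptor (percent, vertical axis) in the summed CPM per kilobase of Fgfr1, Fgfr2, Fgfr3 and Fgfr4, for the 10 groups of diet and day (horizontal axis); stacked bars are means of 3 libraries and bars on them are SD. The Fgfr3 segment is widest in DIO d7, at a mean of 48%, and the Fgfr4 segment is nearly gone from d10 on.

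Among the ligands, Fgf1, which binds every FGF receptor, had the highest median per kilobase. In lean calli it measured 16.8, 16.1 and 28.9 CPM on d3, 11.5, 12.4 and 12.8 on d5, 19.8, 15.6 and 11.4 on d7 and 26.7, 27.3 and 45.6 on d10. Its mean was lowest on d5 and highest on d10, and the test over the 4 lean days was passed (adjusted p = 0.0162), while the single step from d7 to d10 was not (log2 fold change 1.10 ± 0.28, adjusted p = 0.0590). In DIO calli Fgf1 measured 14.6, 14.6 and 18.5 CPM on d3, 23.3, 11.3 and 12.6 on d5 and 14.8, 10.2 and 11.5 on d7. It reached 48.3, 39.1 and 29.6 CPM on d10, 52.5, 36.2 and 46.7 on d14 and 53.5, 53.2 and 36.4 on d21. Every DIO library from d10 on was above every DIO library up to d7. The step from d7 to d10 passed (log2 fold change 1.67 ± 0.27, adjusted p = 0.000448), and d21 stayed above d3 (log2 fold change 1.61 ± 0.26, adjusted p = 0.000112). Osteocyte markers (Dmp1, Sost, Mepe and Phex) summed to 342 to 649.6 CPM on DIO d7 and to 1762 to 2685 CPM on DIO d10, with 4 of 4 higher. Adipocyte markers (Adipoq, Plin1, Fabp4 and Cidec) moved over the same step, from 137 to 173 CPM to 227 to 348 CPM, with 3 of 4 higher, and reached 655 to 775 CPM on d21. From DIO d7 to d10, 6.01% of all genes were called higher. Plin1 had no count in 2 libraries and Cidec none in 1. Between d3 and d21 in DIO mice, 4 of 4 osteocyte, 4 of 4 adipocyte, 4 of 4 erythroid and 3 of 4 leukocyte markers were higher. For that comparison 23.5% of all genes were called higher. From lean d3 to d10 Fgf1 itself was not called. Between these days 4 of 4 osteocyte and 0 of 4 adipocyte markers were called, against 29.3% of all genes. The part of these cells in the Fgf1 change was not tested.

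Fgf7, a mesenchymal ligand for the epithelial form of FGFR2, ran the other way in DIO calli. It measured 12.3, 13.8 and 9.95 CPM on d3, 11.4, 13.2 and 14.2 on d5 and 15.4, 18.6 and 9.42 on d7. It then measured 5.75, 6.66 and 7.41 CPM on d10, 8.13, 5.66 and 8.17 on d14 and 3.34, 4.41 and 5.31 on d21. All libraries from d10 on were below all earlier DIO libraries. Fgf7 was lower on d10 than on d7 (log2 fold change -1.14 ± 0.26, adjusted p = 0.00600) and lower on d21 than on d3 (log2 fold change -1.44 ± 0.26, adjusted p = 0.000260). The first of these missed the threshold without replicate 1 of every day (adjusted p = 0.113) and without replicate 2 (0.127). Fibroblast and progenitor markers were also lower in 1 of 4 cases from d7 to d10 and in 3 of 4 from d3 to d21. Pericyte and smooth muscle markers were lower in 2 of 4 and 4 of 4. The share of all genes called lower was 7.01% from d7 to d10 and 21.8% from d3 to d21. The part of these cells in the Fgf7 change was not tested. In lean calli Fgf7 measured 8.65, 8.87 and 11.9 CPM on d3, 14.9, 9.58 and 12 on d5, 5.50, 7.56 and 11.6 on d7 and 8.52, 4.78 and 10.8 on d10. The lean days overlapped and the test over them was not passed (adjusted p = 0.435).

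Fgf2, or basic FGF, was sparse, with 0 to 46 counts per library and 0 in 3 libraries. Its group means ran from 1.08 ± 0.468 CPM (mean ± SD, n = 3) on lean d3 to 0.167 ± 0.289 CPM on lean d10. In DIO calli the highest mean was 0.959 ± 0.822 CPM on d3 and the lowest 0.228 ± 0.335 CPM on d10, with 0.314 ± 0.0287 CPM on d21. No comparison of Fgf2 passed the test. The lowest adjusted p was for lean d10 against d3 (log2 fold change -2.61 ± 0.96, adjusted p = 0.0581).

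Fgf18, the ligand associated with cartilage and bone growth, had 0 to 27 counts per library. It averaged 0.932 ± 0.0808 CPM on lean d7 and 0.395 ± 0.172 CPM on DIO d7, groups that did not overlap, though the difference did not pass the test (log2 fold change -1.19 ± 0.55, adjusted p = 0.319). On DIO d3 it averaged 1.19 ± 0.376 CPM and on DIO d21 0.247 ± 0.290 CPM (log2 fold change -2.23 ± 0.95, adjusted p = 0.0651). Differences of this size were not resolved with 3 libraries per group at these counts.

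Fgf23, the phosphate hormone, was at 0 counts in 17 of the 30 libraries and never above 7 counts. The highest group was DIO d21, at 0, 0.0580 and 0.357 CPM, and only 6 libraries reached 3 counts. Across libraries 3 counts correspond to 0.106 to 0.230 CPM, so a lower level could not be told from 0. Fgf23 passed the count filter in no comparison and was not tested. Its co-receptor gene Kl, named after its values were seen, had 0 counts in 21 libraries and at most 7.

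Counted over the 10 genes, 9 were tested within each diet, all but Fgf23. In lean mice 5 differed over the 4 days, against 19% of all genes tested, and in DIO mice 5 differed over the 6 days, against 59.1%. The lean set was Fgfr2, Fgfr3, Fgfr4, Fgfrl1 and Fgf1, and the DIO set Fgfr3, Fgfr4, Fgfrl1, Fgf1 and Fgf7. Without replicate 2 of every lean day 0 of them were called, and without replicate 1 or replicate 3 the number was 3. Between lean d3 and d10, 4 genes (Fgfr1, Fgfr2, Fgfr3 and Fgfrl1) rose, against 15.2% of all genes, and Fgfr4 fell, against 14.1%. Over shorter lean intervals only Fgfrl1 was called for d5 against d3 (background 0.449%) and only Fgfr2 for d7 against d3 (1.67%). None of the 10 was called for lean d10 against d7 (2.73% of genes), nor for d7 against d5, where edgeR called 0 genes and 926 had an unadjusted p under 0.05.

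In DIO mice 2 genes rose from d3 to d7, against 4.67% of all genes, and the same 2 from d3 to d5, against 1.39%. Between d7 and d10, the step between consecutive days with the most members called, Fgfr3, Fgfr4, Fgfrl1 and Fgf7 fell, against 7.01% of genes, and Fgf1 rose, against 6.01%. Between d14 and d21 Fgfr3 and Fgfr4 fell (9.03% of genes). No member was called between d5 and d7 (0.0177% of genes) or between d10 and d14 (0.759%). Against d3, 3 members were called on d10 (21.8% of genes), 3 on d14 (26.3%) and 4 on d21 (45.3%). On d10 and d14 these were Fgfr4, Fgf1 and Fgf7, and on d21 Fgfr3 in addition. The Fgf7 fall from d3 to d10 (log2 fold change -0.86 ± 0.25, adjusted p = 0.0230) was lost without replicate 1 (adjusted p = 0.161) or replicate 2 of every day (0.172). The fall to d14 (log2 fold change -0.71 ± 0.25, adjusted p = 0.0466) was lost with upper-quartile factors, without the count filter, with a replicate block, with all 30 libraries in 1 fit and without replicate 1 or 2, with adjusted p from 0.0611 to 0.370.

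The design also asked whether obesity changed these levels on a given day. On d7, Fgfr3 and Fgfrl1 were higher in DIO than in lean calli, 2 of the 8 members tested, against 1.4% of all genes. Fgfr3 averaged 300.5 ± 52.2 CPM in DIO and 131 ± 30.7 CPM in lean calli, a 2.31-fold difference (log2 fold change 1.21 ± 0.22, adjusted p = 0.0273). Fgfrl1 averaged 205 ± 48 CPM against 68.0 ± 17.4 CPM, a 3.03-fold difference (log2 fold change 1.60 ± 0.25, adjusted p = 0.0173). For both genes the lowest DIO library was above the highest lean library. Such separation of 3 against 3 libraries gives p = 0.1 at best in an exact permutation test. The share of all genes that separate in this way is not given here. Both calls were lost without lean replicate 1 (adjusted p = 0.109 for Fgfr3 and 0.0654 for Fgfrl1) and without lean replicate 2 (0.156 and 0.0845). The Fgfr3 call was also lost without DIO replicate 1 (0.0577). The differences themselves stayed above a log2 fold change of 1 in each of these fits.

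Fgfr4 on d7 was also higher in every DIO than in every lean library, but missed the threshold (log2 fold change 1.35 ± 0.36, adjusted p = 0.0906). It was called without the count filter (adjusted p = 0.0304) and by DESeq2 (0.00867). Fgfr2 was lower in all DIO than in all lean d7 libraries (log2 fold change -0.34 ± 0.16, adjusted p = 0.320), and Fgfr1 overlapped (log2 fold change -0.31 ± 0.24, adjusted p = 0.577). Satellite cell and myoblast markers summed to 19.4 to 56.1 CPM in DIO and 13.7 to 26.1 CPM in lean d7 calli. Of the 3 tested, 0 were called, against 2.32% of all genes. The part of these cells in the Fgfr4 values was not tested. The ligands Fgf1 (log2 fold change -0.34 ± 0.26, adjusted p = 0.567) and Fgf7 (log2 fold change 0.82 ± 0.34, adjusted p = 0.262) did not pass on d7.

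Cell markers differed between the diets on d7 as well. The 6 chondrocyte markers summed to between 13380.5 and 32913 CPM in DIO and between 2902 and 12097 CPM in lean calli. 2 of the 6 were called higher (1.4% of all genes) and none lower (0.92%), and Col2a1 averaged 19349 against 5016 CPM. Their part in the Fgfr3 and Fgfrl1 difference was not tested.

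**Figure D3:**
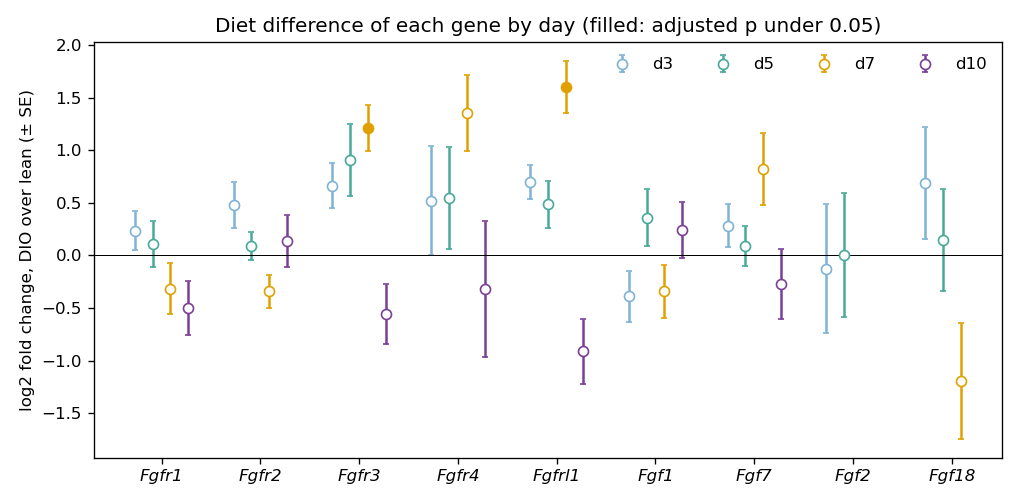
Log2 fold change of DIO over lean (vertical axis) on d3, d5, d7 and d10 for the members that could be tested (horizontal axis), with bars of 1 SE; filled points passed an adjusted p of 0.05. Fgfr3 and Fgfrl1 on d7, at 1.21 and 1.60, are the filled points.

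On d3 no member was called, and edgeR called 0 of 15772 genes on that day, with 2374 at an unadjusted p under 0.05 and 728 called by DESeq2. Fgfrl1 was higher in each DIO than in each lean d3 library, without passing the test (log2 fold change 0.70 ± 0.16, adjusted p = 0.123). It passed without the count filter (adjusted p = 0.0315) and with DESeq2 (0.00972). With the replicate number as a block it also passed (adjusted p = 0.0489), but no label pairs lean and DIO libraries by that number. The deviations of same-numbered d3 libraries had r = -0.03, 0.189 and 0.0366, so the block has no known meaning here. Fgfr3 on d3 also did not overlap (log2 fold change 0.66 ± 0.22, adjusted p = 0.213).

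On d5 no member was called, against 1.08% of genes. Fgfr3 had the largest difference (log2 fold change 0.91 ± 0.34, adjusted p = 0.212), with lean replicate 3 at 163 CPM inside the DIO range. Without that library it was 1.42 ± 0.21 (adjusted p = 0.0165), and DESeq2 called it with all libraries (adjusted p = 0.0475). Fgfrl1 was higher in all DIO libraries of d5 without passing (log2 fold change 0.49 ± 0.22, adjusted p = 0.291).

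On d10 no member was called and edgeR called 0 of 15341 genes, with 1082 at an unadjusted p under 0.05 and 47 called by DESeq2. The sign of the Fgfrl1 and Fgfr3 differences was now negative, with every DIO library below every lean library for Fgfrl1 (log2 fold change -0.91 ± 0.31, adjusted p = 0.686) and for Fgfr3 (log2 fold change -0.56 ± 0.28, adjusted p = 0.686). Neither difference passed the test on that day. Without lean d10 replicate 1 the log2 difference was -0.43 ± 0.18 (adjusted p = 0.859) for Fgfrl1 and -0.12 ± 0.17 (adjusted p = 1.00) for Fgfr3.

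Whether the diet difference itself changed was tested as the interaction of diet and day in the 24 libraries of d3 to d10. Over all days it was called for Fgfrl1 (adjusted p = 0.0233), 1 of 9 tested members against 1.65% of genes, and not for Fgfr3 (adjusted p = 0.101). Leaving any replicate number out of every group left 0 members called. Between d7 and d10 the difference fell for Fgfrl1 (log2 fold change -2.52 ± 0.40, adjusted p = 0.00269) and for Fgfr3 (log2 fold change -1.77 ± 0.45, adjusted p = 0.0270), 2 of 9 against 3.37% of genes. Without lean d10 replicate 1 it was -1.32 ± 0.41 (adjusted p = 0.113) for Fgfr3, while Fgfrl1 stayed past the threshold at -2.02 ± 0.33 (adjusted p = 0.00352). Without replicate 2 of every group Fgfrl1 was at -2.61 ± 0.46 (adjusted p = 0.0658). Fgfr3 was at -1.22 ± 0.39 (adjusted p = 0.216) without replicate 1 of every group and at -1.99 ± 0.65 (adjusted p = 0.212) without replicate 2. No member was called for the steps from d3 to d5, where edgeR called 0 genes and 736 had an unadjusted p under 0.05, or from d5 to d7 (0.00586% of genes).

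A time course fitted as a polynomial of degree 2 in day differed between the diets for Fgfr3 (adjusted p = 0.0128) and Fgfrl1 (adjusted p = 0.0265), 2 of 9 against 8.13% of genes. Fgfr3 alone remained called without replicate 3 of every group, and neither without replicate 1 or replicate 2. Chondrocyte markers shared the pattern, with 5 of 6 lower for the change of the diet difference between d7 and d10, against 3.37% of genes. Lean d10 was the day on which replicate 1 held the high marker sum, and the marker part in these results was not tested.

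**Figure D4:**
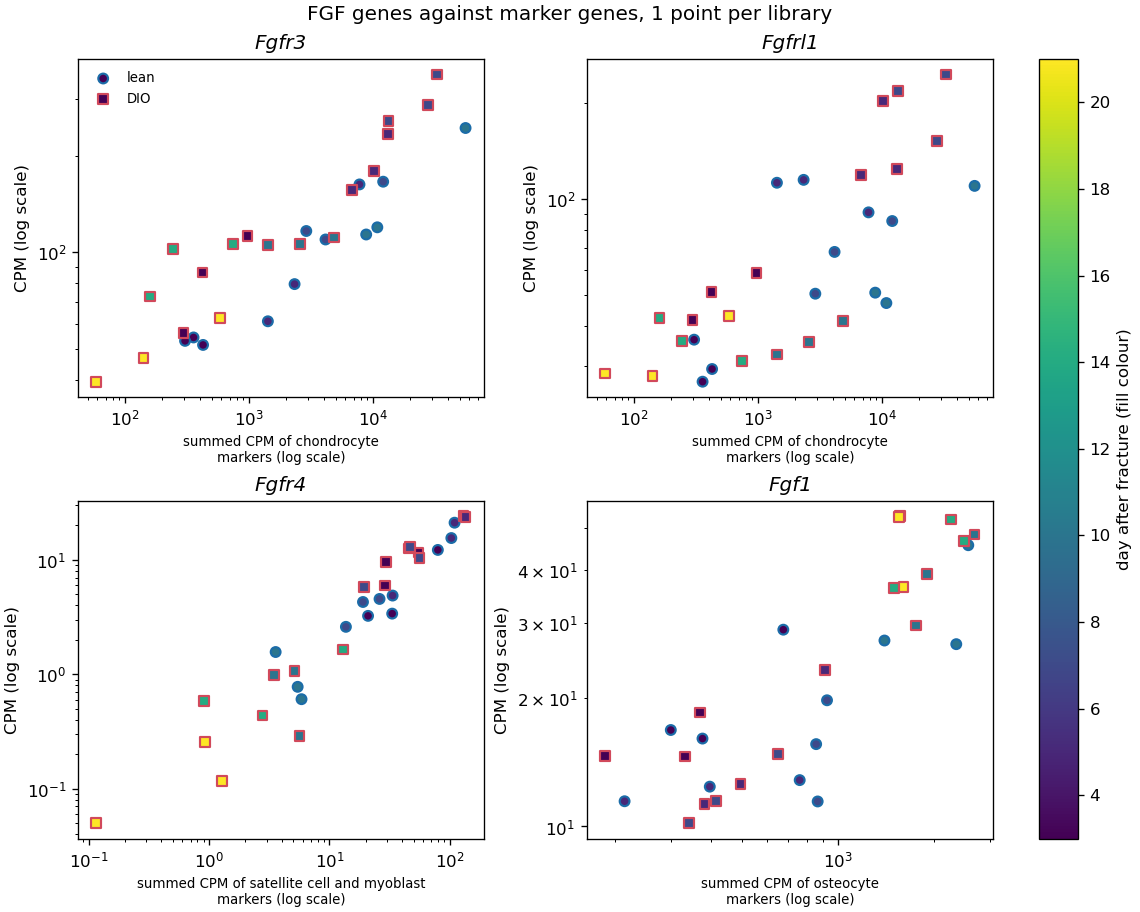
CPM of Fgfr3 and Fgfrl1 against summed chondrocyte markers, of Fgfr4 against summed satellite cell and myoblast markers, and of Fgf1 against summed osteocyte markers (all axes logarithmic, CPM), 1 point per library, with shape giving the diet and fill colour the day. The library with no Fgfr4 count is drawn at the lower edge, and lean d10 replicate 1 is the point farthest right in the chondrocyte panels.

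Of the feedback inhibitors in DIO calli, 5 of 12 fell from d3 to d7, against 2.62% of all genes, and none rose, with a median log2 fold change of -0.72 against 0.03 over all genes. Dusp6, the ERK phosphatase, fell by 0.80, Spred2 by 0.94, Spry2 by 0.85 and Spry1 by 0.99 on the log2 scale. From d7 to d10, 3 rose, Dusp6 (log2 fold change 0.88 ± 0.17, adjusted p = 0.00210) and Dusp4 (log2 fold change 1.57 ± 0.45, adjusted p = 0.0270) among them, against 6.01% of all genes, and 1 fell, against 7.01%. On d7 Dusp6 was the 1 called of 11 tested between the diets, at 24 CPM in DIO and 42.9 CPM in lean calli (log2 fold change -0.83 ± 0.18, adjusted p = 0.0476), against 0.92% of all genes called lower. In lean mice, from d3 to d10, Dusp4 rose (log2 fold change 1.15 ± 0.38, adjusted p = 0.0378) and the ubiquitin ligase gene Cbl fell (log2 fold change -2.52 ± 0.62, adjusted p = 0.0109).

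Genes commonly induced by ERK and ETS factors were lower on DIO d7 than on d3 in 5 of 8 cases, against 2.62% of all genes. Their median log2 fold change was -0.95, against 0.03 over all genes. Among them were the ETS transcription factors Etv5 (log2 fold change -0.99 ± 0.22, adjusted p = 0.0105) and Etv4 (log2 fold change -1.14 ± 0.28, adjusted p = 0.0187) and the cyclin gene Ccnd1 (log2 fold change -0.92 ± 0.21, adjusted p = 0.0137). From d7 to d10 Etv5 (log2 fold change 1.22 ± 0.22, adjusted p = 0.00139) and Etv4 (log2 fold change 0.89 ± 0.28, adjusted p = 0.0441) rose, while Myc (log2 fold change -0.70 ± 0.17, adjusted p = 0.00901) and Fosl1 (log2 fold change -2.0 ± 0.49, adjusted p = 0.0113) fell. Over that step 6.01% of all genes were called higher and 7.01% lower. On d21, 6 of 8 were lower than on d3, against 21.8% of all genes, led by Fosl1 (log2 fold change -5.71 ± 0.59, adjusted p = 1.86e-06), and the list's median was -1.45. None of the 8 was called between the diets on d7, where the median was -0.53. These genes respond to many signals besides FGF.

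Of the 15 co-receptor and FGF-binding genes, 11 were tested in lean mice, and 6 rose from d3 to d10, against 15.2% of all genes, none falling. The heparan sulphate carriers Sdc2 (log2 fold change 1.65 ± 0.17, adjusted p = 0.000115), Gpc1 (log2 fold change 1.18 ± 0.25, adjusted p = 0.00585) and Hspg2 (log2 fold change 1.52 ± 0.36, adjusted p = 0.00959) were among them. On d7 Sdc4 was the 1 called of 11 between the diets, at 185 CPM in DIO and 90.9 CPM in lean calli (log2 fold change 1.04 ± 0.20, adjusted p = 0.0315), against 1.4% of all genes called higher. In DIO mice 5 of 13 were lower on d21 than on d3, against 21.8% of all genes, and 1 was higher, against 23.5%. The falls were led by Hspg2 (log2 fold change -1.40 ± 0.29, adjusted p = 0.000772) and Gpc1 (log2 fold change -1.17 ± 0.25, adjusted p = 0.00105).

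Of the 18 signal transducers, from receptor adaptors to the ERK kinases, 4 rose and 4 fell from lean d3 to d10, against 15.2% and 14.1% of all genes. The adaptor gene Gab1 rose (log2 fold change 1.33 ± 0.21, adjusted p = 0.00136) and the kinase gene Map2k1 fell (log2 fold change -0.52 ± 0.11, adjusted p = 0.00475). In DIO mice 1 rose from d3 to d7, against 4.67% of all genes, and none was called from d7 to d10, against 13%. On d21 4 were higher and 2 lower than on d3, against 23.5% and 21.8% of all genes. None of the 18 was called between the diets on d7.

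Genes known to act on FGF23 production and processing were all tested, unlike Fgf23 itself. Of these, 6 of the 7 rose from lean d3 to d10, against 15.2% of all genes, led by the kinase gene Fam20c (log2 fold change 3.12 ± 0.42, adjusted p = 0.000590) and the peptidase gene Phex (log2 fold change 2.75 ± 0.48, adjusted p = 0.00199). In DIO mice 4 rose from d7 to d10, against 6.01% of all genes, led by Mepe (log2 fold change 2.81 ± 0.25, adjusted p = 3.72e-06). The 1 that fell, against 7.01% of all genes, was Furin, which encodes a protease able to cleave FGF23 (log2 fold change -0.84 ± 0.22, adjusted p = 0.0178) and is named after its values were seen. Mepe, Dmp1 and Phex belong to the osteocyte markers too.

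Of the 17 other FGF ligand genes only 4 passed the count filter in either diet alone. Fgf9, a chondrogenic ligand, rose from DIO d7 to d10 (log2 fold change 2.36 ± 0.49, adjusted p = 0.00381), from a mean of 0.544 to 2.89 CPM, and was higher on d21 than on d3 (log2 fold change 1.63 ± 0.48, adjusted p = 0.00999). Fgf11, which stays inside the cell, was lower on DIO d21 than on d3 (log2 fold change -0.93 ± 0.29, adjusted p = 0.0154).

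The genes whose log2 CPM followed each member most closely over the 30 libraries, among 14801 with a mean of at least 1 CPM, are given as a description, since all points share the libraries and the days. For Fgfr3 these were Rarres1, Slc35e3 and Susd5, with Pearson's r of 0.955, 0.953 and 0.950. For Fgfrl1 they were Peg3 (0.930), Kcna5 (0.910) and Prelp (0.910). Fgfr4 ran closest to Dclk1 (0.953) and to the myogenic factors Myog (0.947) and Myod1 (0.944). Fgfr1 ran with Myo1e (0.930), the type I collagen gene Col1a1 (0.913) and Sdc3 (0.891), and Fgfr2 with the Wnt agonist gene Rspo3 (0.820), Ctnnb1 (0.816) and Trnp1 (0.815). Of the ligands, Fgf1 ran with Pla2g5 (0.909), Mepe (0.900) and Atp6ap1 (0.879), and Fgf7 with Dse (0.896), Nedd4 (0.890) and Slc1a3 (0.879). The sparse ligands had lower values, led by Tbck for Fgf2 (0.814), Fam219a for Fgf18 (0.770) and Zfp473 for Fgf23 (0.587).

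Among the members themselves, Fgfr3 and Fgfrl1 had an r of 0.785 over the 30 libraries and 0.398 once the group means were removed. Fgfr4 and Fgf1 ran in opposite directions, at -0.879 and -0.451 within groups. Fgfr4 and Fgf7 had 0.778 over all libraries but -0.022 within groups, and Fgfr1 and Fgfr3 rose from 0.505 to 0.725 within groups.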

How the data were processed

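Bulk RNA-seq of callus tissue was analysed in 30 libraries, 12 lean and 18 DIO, prepared with a stranded mRNA kit. The authors aligned reads to GRCm38 with HISAT2 2.1.0 and deposited raw HTSeq read counts per gene, with no normalization. The HTSeq version, strand setting and annotation are not given in the sources used here. Symbols, positions and exon lengths were taken from GENCODE M21, which held 42548 of the 43629 gene identifiers.

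Counts were scaled by TMM factors (0.779 to 1.11) to CPM, filtered with filterByExpr, and tested with edgeR 4.0.16 (R 4.3.3) by the quasi-likelihood F-test, with Benjamini-Hochberg adjustment over all genes tested and a threshold of 0.05. Days were compared within each diet, the diets within each day (6 libraries), and diet by day in the 24 libraries of d3 to d10. Log2 CPM for correlations used a prior count of 2. The tests were tested on simulated counts first. Alternatives were DESeq2 1.42.0, other size factors, no count filter, a replicate block, 1 fit of all libraries and leaving out libraries. Within each group, no library looked like another one deposited again (chi-square per degree of freedom 12.8 to 148). Libraries of different groups were not compared in this way. No label or design pairs calli of different days. Among the pairs of groups looked at, same-numbered libraries deviated together most clearly between lean d5 and d7 (r = 0.276, 0.204 and 0.240). Between DIO d10 and d14 r was 0.151, 0.0804 and 0.0667. That match was picked from these data, so the block has no known meaning. No member was called between lean d5 and d7 in the main fit, which used no block.

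The members, 6 pathway lists (77 genes) and 13 marker lists (56 genes) were chosen with earlier results of these data known. Named were all members, up to 4 called genes per pathway list and comparison by adjusted p (mean of at least 1 CPM), the 3 genes most correlated with each member, and the first 2 genes of each marker list. Total counts limit precision, and floors of 3 counts cover counting error only. P-values measure the spread between calli of one study.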

Additional observations from a re-analysis of the deposited data

Results flagged for a closer look

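The diet difference of Fgfrl1 changed over the days in the joint test (adjusted p = 0.0233), and between d7 and d10 it changed by -2.52 on the log2 scale (adjusted p = 0.00269). The diet difference of Fgfr3 changed by -1.77 between the same days (adjusted p = 0.0270). Both genes also had time courses that differed between the diets, with an adjusted p of 0.0128 for Fgfr3 and 0.0265 for Fgfrl1. These results stand out because the difference between DIO and lean mice was itself found to differ between days. Of all genes, 1.65% were called in the joint test, 3.37% were lower for the step from d7 to d10, and 8.13% were called in the time course. With libraries left out, the members called ranged from 0 to 1 in the joint test, and from 0 to 2 for the step and for the time course. The Fgfr3 step was not called without lean d10 replicate 1. Chondrocyte markers moved on the same days, and their part was not tested.

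Among the 77 pathway genes, 5 were picked out for the same reason, a diet difference that changed between d7 and d10. For this step 3.37% of all genes tested were called lower and 1.7% higher. The fit included lean d10 replicate 1, the library with the high chondrocyte markers. It changed by -2.13 ± 0.43 (SE, log2) for the syndecan gene Sdc4 (adjusted p = 0.00782), by -1.71 ± 0.42 for the perlecan gene Hspg2 (adjusted p = 0.0239) and by -3.39 ± 0.97 for Fosl1 (adjusted p = 0.0463). The change was in the positive direction for the feedback inhibitors Il17rd, at 1.53 ± 0.37 (adjusted p = 0.0204), and Dusp6, at 0.78 ± 0.21 (adjusted p = 0.0347).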

How the results depend on the processing

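Leaving out libraries, the number of members called ranged from 0 to 6 over the lean days (5 with all), from 5 to 7 over the DIO days (5), from 0 to 0 between the diets on d3 and on d10 (0 each), from 0 to 1 on d5 (0) and from 0 to 2 on d7 (2). It ranged from 0 to 1 for the change of the diet difference (1), from 0 to 2 for its step from d7 to d10 (2) and from 0 to 2 for the time course (2). Between the diets on d3, 1 member was called without the count filter, 1 with DESeq2 and 1 with the replicate block, against 0, and on d5 DESeq2 called 1 against 0. For the change of the diet difference 2 were called without the filter and 2 with DESeq2, against 1. Of the pathway genes 4 were called between the diets on d7 without the filter, against 2. Fgf2 between the diets on d5 turned from 0.0023 to -0.0012 (log2) with RLE factors. The per-length levels of Fgfr1, Fgfr2, Fgfr3 and Fgf1 moved with the longest transcript as the length, to means of 70.9, 30.3, 29.9 and 6.46 CPM per kilobase.

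Signs of uncalled log2 differences between the diets turned when a library was left out: Fgf2 on d3 (-1.15 to 0.22), and on d5 Fgf2 (-0.39 to 0.38), Fgf7 (-0.0428 to 0.25), Fgfr1 (-0.0537 to 0.35), Fgf1 (-0.0367 to 0.55) and Fgf18 (-0.26 to 0.47). The same held on d10 for Fgfr4 (-0.61 to 0.16) and Fgfr2 (-0.12 to 0.31), and for the step from d7 to d10 of Fgfr1 (-0.50 to 0.10), Fgf2 (-0.33 to 4.74) and Fgf18 (-0.47 to 1.2).

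All genes called between the diets numbered 170 on d5, against 1150 with DESeq2, 565 without the filter, 63 in 1 fit of all libraries and 0 with the block. On d7 they numbered 366, against 944, 724 and 675 in the first 3 of these. On d3 edgeR called 0, against 728 with DESeq2, 515 without the filter, 325 with the block and 1 with upper-quartile factors, and on d10 0, against 47, 29 and 3 with DESeq2, without the filter and in 1 fit. DESeq2 also called more for the lean days (4847 against 3132), the change of the diet difference (1151 against 282, and 503 without the filter), its step from d7 to d10 (1496 against 865) and the time course (2501 against 1386). With the replicate number as a block, 6 members were called over the lean days, 5 over the DIO days, 0 on d5, 2 on d7, 0 on d10, 1 for the change of the diet difference, 2 for its step from d7 to d10 and 2 for the time course. The cause of these changes was not tested.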

Other observations

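Among the FGF genes outside the 10 members, Fgf11 had group means from 4.61 CPM on DIO d21 to 18.6 CPM on DIO d5, and none of its 4 comparisons between the diets passed the test. Fgf13, named after its values were seen, lay between 1.38 and 7.40 CPM in all libraries. Fgf9 had a mean of 1.33 CPM on lean d7 and 0.544 CPM on DIO d7, then 1.51 CPM on lean d10 and 2.89 CPM on DIO d10. The change of its diet difference between these days was 2.19 ± 0.69 on the log2 scale and missed the threshold (edgeR, adjusted p = 0.0683). Klb, the co-receptor gene for the endocrine ligand FGF21 and also named after its values were seen, had 0 counts in 16 libraries and at most 19.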
